A study of Arabidopsis thaliana with 6 samples.

Results

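Family 1 UDP-glycosyltransferases (UGT genes) and glutathione transferases (GST genes) of Arabidopsis were described in albino msh1 shoots and wild-type shoots. Members were taken by name: every probe set whose single gene symbol in the array annotation began with UGT and a number, or with GSTU, GSTF, GSTT, GSTZ or GSTL and a number. This gave 60 genes, 47 of them UGT and 13 GST, each with 1 probe set, among 13356 genes with a probe set of their own and 22746 probe sets tested. The TAIR10.1 gene table lists 105 genes with such symbols, and the other 45 had no single-gene probe set under such a symbol. A few of them share a probe set with another gene, and such probe sets are treated below as outside the rule. Counting only genes with such symbols, 47 of the 58 UGT genes listed there and 13 of the 47 GST genes were measured. The GST part therefore rests almost wholly on the tau class, with 11 of 27 GSTU genes, 1 of 12 GSTF genes and 1 of 3 GSTL genes, and with no theta (GSTT) or zeta (GSTZ) gene.

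The tested plants were albino msh1 mutants (3 Affymetrix arrays), and the controls were wild-type plants (3 arrays), and the arrays of a group are labelled as biological replicates. MSH1 codes for an organelle-targeted protein of the MutS type, known for keeping the genomes of mitochondria and plastids stable. All plants were 4 weeks old and had grown on MS medium with 1.5% sucrose, at 24 °C in 12 h light and 12 h dark, and RNA came from the aerial part. The mutant allele and the accession of the wild type are not given in the labels, and the annotation pairs MSH1 with no probe set, alone or with other genes, so its transcript was not analysed here. Since all mutant plants were albino, genotype and the albino state cannot be told apart.

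UGT enzymes transfer a sugar from a UDP-sugar to small acceptors such as hormones, flavonoids, phenylpropanoids and foreign compounds. GST enzymes join the tripeptide glutathione to electrophilic compounds or bind them, and the tau and phi classes are the large plant-specific ones. Both families are known in Arabidopsis for detoxification, and many tau class GST genes and some UGT73 genes are known to respond to oxidative stress, pathogens and xenobiotics. Several UGT enzymes have known natural acceptors, among them salicylic acid, abscisic acid, auxin, cytokinins and the precursors of lignin.

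A minority of the genes passed an adjusted p of 0.05 between albino and wild-type shoots (limma), and those that did went in both directions. UGT73B4, UGT73B5, UGT87A2, UGT71C2 and UGT85A2 rose in albino shoots, as did the tau class genes GSTU25, GSTU22 and GSTU27. UGT71B1 and UGT88A1 fell, and so did GSTU18 and GSTU16. The largest rise was 5.23-fold (UGT73B4) and the largest fall 1.97-fold (GSTU18). The other 48 genes, among them UGT74F1, UGT76E1, UGT76C1 and UGT78D1, did not pass an adjusted p of 0.05 by limma.

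By limma, with Benjamini-Hochberg adjustment over all 22746 probe sets, 12 of the 60 genes (20%) passed, against 11.2% of all probe sets. Higher in albino shoots were 8 genes, against 3.75% of all probe sets, and lower were 4, against 7.44%. Of the genes that rose, 5 were at least 2-fold higher, against 1.6% of all probe sets. None of the genes that fell was at least 2-fold lower, against 1.07%. In the UGT family 7 of 47 genes passed (14.9%), 5 higher and 2 lower, and in the GST family 5 of 13 (38.5%), 3 higher and 2 lower. An unadjusted limma p under 0.05 was reached by 8 further UGT genes and 1 further GST gene. Over all 22746 probe sets 5835 had such a p, with the 2547 that passed included.

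The 3 albino arrays lay above all 3 wild-type arrays in 16 of the 60 genes, against 10.1% of all probe sets, and below them in 11, against 19.8%. In all, 45% of the genes had groups that did not overlap, against 29.9% of all probe sets. The typical gene of either family hardly differed: the median difference was 0.02 on the log2 scale for UGT genes and -0.05 for GST genes, beside -0.04 for all probe sets. The sign of the GST median was not settled, since it was 0.03 with arrays aligned on the 75th percentile, 0.06 with arrays aligned on reference genes and 0.01 without msh1 albino replicate 1. The UGT median was above 0 under each of these scalings. Of the 8 reference genes used for that alignment 1, AT4G33380, itself passed as lower (-0.34, limma adjusted p = 0.0455), and AT5G12240 had means of 3.65 in albino shoots and 3.68 in wild type, under the 25th percentile of all probe sets. Either alignment shifts the difference of every gene by the same amount. Alignment on the 75th percentile moved the median of all probe sets to 0.04. Alignment on reference genes moved the median of all probe sets to 0.08, and that of the UGT genes to 0.14.

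**Figure D1:**
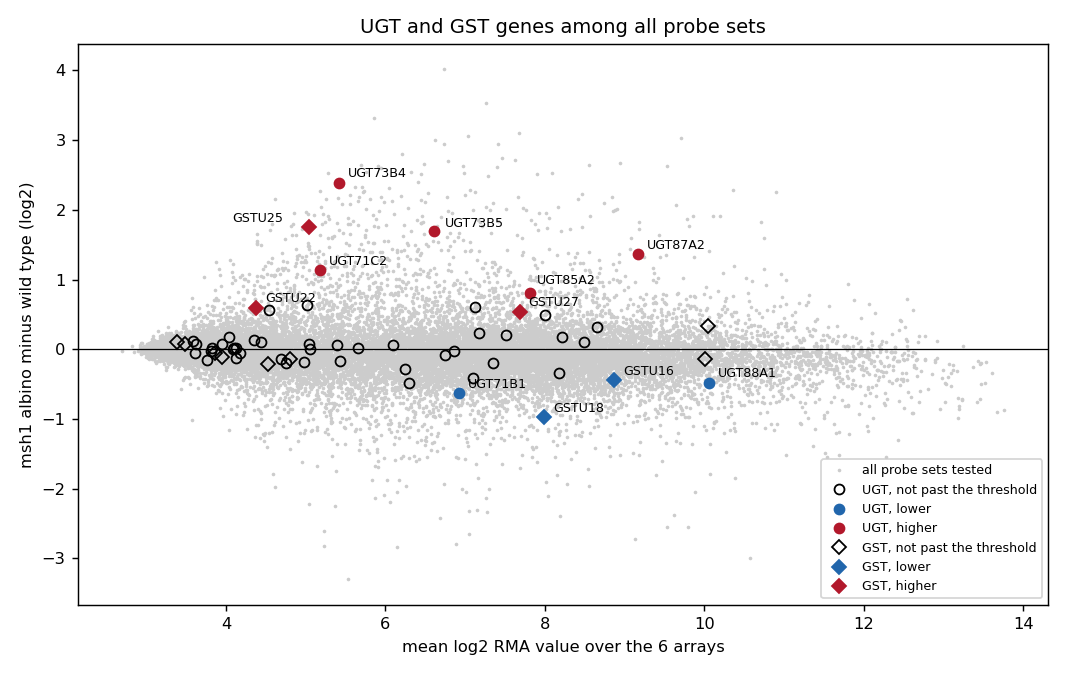
Difference between groups (msh1 albino minus wild type, log2, vertical axis) against the mean log2 RMA value over the 6 arrays (horizontal axis) for all probe sets tested (grey), UGT genes (circles) and GST genes (diamonds); filled symbols passed an adjusted p of 0.05, red higher and blue lower. Most members lie close to 0, and UGT73B4 lies highest among the members at 2.39.

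The level values are log2 RMA values, the unit in which the authors deposited the arrays, and 1 unit is a 2-fold step. They serve to compare arrays for one gene and not one gene with another. Of the 60 genes 11 had a mean under the 25th percentile of all probe sets, 4.01, and 35 lay under the median of 5.96. None of the 12 genes that passed lay under that percentile and 4 lay under the median. Background was not measured, so where a group mean is near 4 the fold would understate the change if that level is background. In tissue RNA, fewer cells of a type and less RNA per cell cannot be told apart.

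Of the UGT73 genes, UGT73B4 and UGT73B5, both of subfamily B, rose. UGT73B4 (AT2G15490), whose enzyme can glucosylate breakdown products of the explosive TNT, had values of 6.59, 7.15 and 6.07 in albino replicates 1 to 3, against 4.39, 3.92 and 4.35 in wild-type replicates 1 to 3. Its groups did not overlap, and albino replicate 3 lay closest to the wild-type arrays. The difference was 2.39 ± 0.26 (SE, n = 3 arrays per group), which is 5.23-fold, with an adjusted p of 0.00268 by limma. UGT73B5 (AT2G15480), a gene known for a role in resistance to Pseudomonas syringae, had 7.38, 7.82 and 7.18 in albino shoots, against 5.95, 5.56 and 5.76 in wild type. All albino arrays again lay above all wild-type arrays, by a difference of 1.70 ± 0.18 or 3.26-fold (limma adjusted p = 0.00236). Both calls held in every alternative tried.

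UGT73B1 (AT4G34138), the other subfamily B gene with its own probe set, had 8.54, 8.15 and 8.06 in albino shoots, against 7.77, 7.49 and 8.03 in wild type. The groups did not overlap, but by a narrow margin between albino replicate 3 and wild-type replicate 3, and the difference of 0.48 ± 0.18 did not pass (limma adjusted p = 0.127). One more probe set is annotated to 2 genes of this subfamily together, UGT73B2 and UGT73B3, and so stood outside the rule. It had 9.79, 10.02 and 8.92 in albino shoots, against 7.63, 7.25 and 7.17 in wild type, a difference of 2.22 ± 0.27 (limma adjusted p = 0.00406), and which of its genes it reads was not settled. In subfamilies C and D none of the 4 measured genes passed. UGT73C1, whose enzyme also acts on TNT products, had a difference of 0.01 (95% interval -0.19 to 0.22) and UGT73C2 one of 0.07 (-0.21 to 0.35). UGT73D1 had 0.18 (-0.08 to 0.43). UGT73C7 had 0.56 (-0.00 to 1.12), and it passed without wild-type replicate 1, its highest wild-type array (difference 0.84, adjusted p = 0.0295).

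UGT87A2 (AT2G30140), whose enzyme is known to affect flowering time, had 9.67, 10.26 and 9.62 in albino shoots, against 8.79, 8.14 and 8.53 in wild type. The lowest albino array stood well above the highest wild-type array. The difference was 1.36 ± 0.22, or 2.57-fold (limma adjusted p = 0.00957), and it passed in every alternative tried at the 0.05 threshold.

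The UGT71 genes went both ways. UGT71C2 (AT2G29740) had 5.82, 5.96 and 5.47 in albino shoots, against 4.64, 4.60 and 4.60 in wild type, where the 3 arrays were nearly equal. It rose by 1.14 ± 0.13, or 2.20-fold (limma adjusted p = 0.00345). UGT71B1 (AT3G21750) had 6.71, 6.59 and 6.50 in albino shoots, against 7.17, 7.20 and 7.33 in wild type. Its groups did not overlap, and it fell by 0.63 ± 0.10 on the log2 scale, 1.55-fold lower (limma adjusted p = 0.00906). Both calls held in every alternative tried at the 0.05 threshold.

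Of the 9 measured UGT71 genes the other 7 did not pass. UGT71B6 and UGT71C5 both code for enzymes that glucosylate abscisic acid. UGT71B6 had 5.02, 5.67 and 5.30 in albino shoots, against 4.98, 4.60 and 4.52 in wild type. Its groups did not overlap, by a very small margin between albino replicate 1 and wild-type replicate 1, and the difference was 0.63 ± 0.19 (limma adjusted p = 0.0745). It passed with arrays aligned on the 75th percentile (0.71, adjusted p = 0.0321) or on reference genes (0.75, 0.0268). UGT71C5 had a difference of 0.17 (95% interval -0.05 to 0.40). UGT71C4 lay lower in all albino arrays, with a difference of -0.34 ± 0.10 that did not pass (limma adjusted p = 0.0721). UGT71B5, UGT71B8, UGT71C1 and UGT71C3 had differences between -0.05 and 0.13.

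In the UGT85 family UGT85A2 (AT1G22360) had 8.04, 8.64 and 7.94 in albino shoots, against 7.63, 7.28 and 7.31 in wild type. The groups did not overlap, though albino replicate 3 stood only slightly above wild-type replicate 1. The difference was 0.80 ± 0.19, or 1.74-fold (limma adjusted p = 0.0373). The call was lost without msh1 albino replicate 1 (adjusted p = 0.0607), wild-type replicate 2 (0.137) or wild-type replicate 3 (0.114), and its adjusted p ran from 0.00960 to 0.137 over the alternatives. The other measured UGT85 genes, UGT85A3, UGT85A4, UGT85A5 and UGT85A7, had differences between -0.18 and 0.23, and none passed.

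UGT88A1 (AT3G16520), the one UGT88 gene, had 9.84, 9.79 and 9.81 in albino shoots, against 10.24, 10.30 and 10.36 in wild type. Both groups were tight and did not overlap, and the gene fell by 0.48 ± 0.09, 1.40-fold lower (limma adjusted p = 0.0136). The fall was smaller when arrays were rescaled, and the call was lost with alignment on reference genes (-0.37, adjusted p = 0.0583), cyclic loess (-0.35, 0.0748) and quantile normalization applied again (-0.37, 0.0575). It was also lost without wild-type replicate 2 (0.0580) or wild-type replicate 3 (0.0525). Its adjusted p ran from 0.00835 to 0.0748 over the alternatives.

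**Figure D2:**
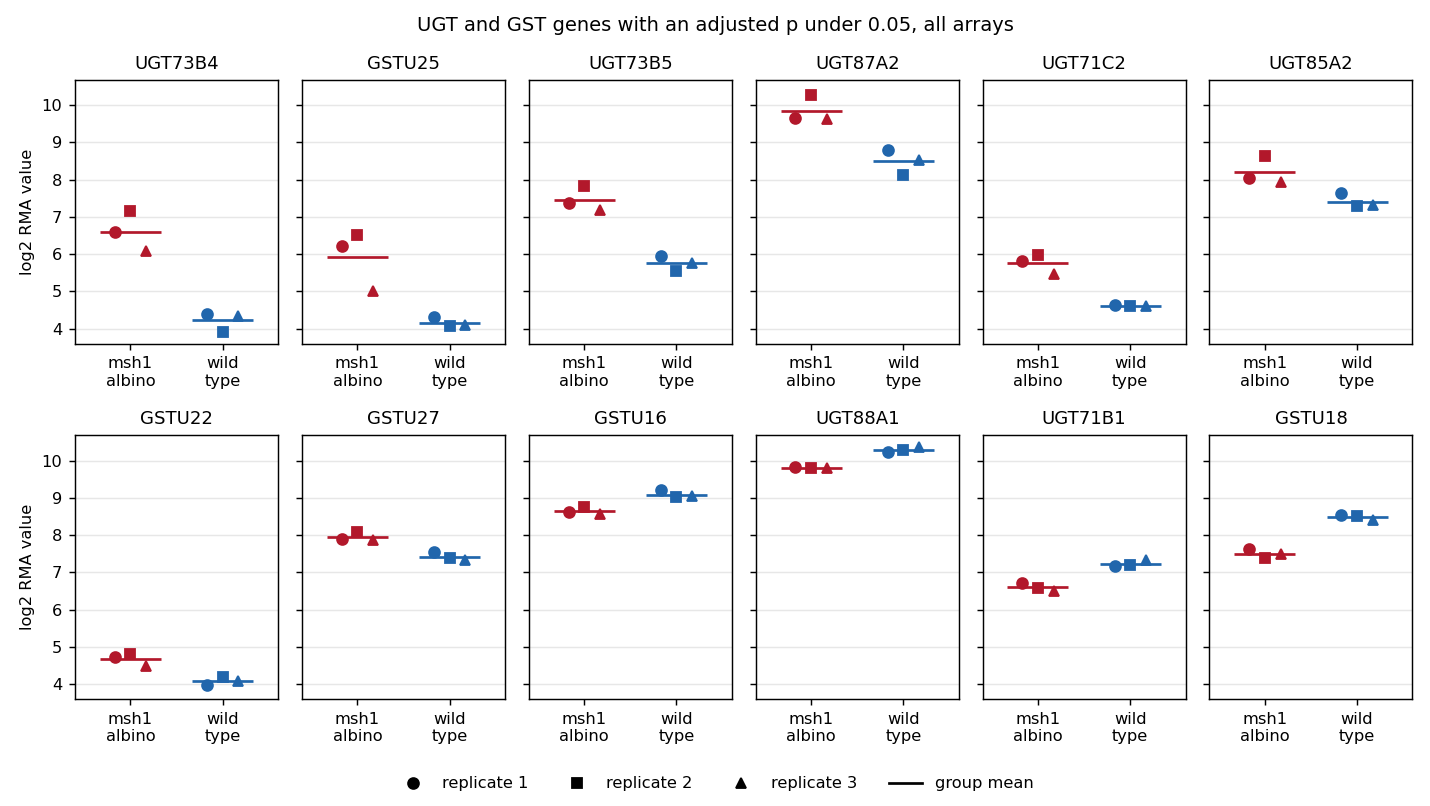
Log2 RMA values (vertical axis) of the 12 genes with an adjusted p under 0.05 in each array, msh1 albino (red, left) and wild type (blue, right); symbols mark the replicate and lines the group means. In all 12 genes the groups do not overlap, and UGT73B4 has the widest gap between group means, 6.61 against 4.22.

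Several of the genes that did not pass code for enzymes that act on hormones. UGT74F1, which forms salicylic acid glucoside, had 5.01, 5.05 and 5.09 in albino shoots, against 5.15, 5.08 and 4.93 in wild type, a difference of -0.00 (95% interval -0.22 to 0.22). UGT76B1, which acts on salicylic acid and isoleucic acid, had a difference of 0.06 (-0.45 to 0.57). UGT76D1, an enzyme for dihydroxybenzoic acids, had 0.01 (-0.29 to 0.31). The arrays of both groups overlapped in all of these genes, and their intervals on the array values stayed within 2-fold. UGT76D1 had means of 3.83 in albino shoots and 3.82 in wild type, under the 25th percentile of all probe sets. If that level is background, its interval does not bound the change of the transcript.

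Among genes for cytokinin N-glucosylation, the neighbours UGT76C1 and UGT76C2 lay on opposite sides. UGT76C1 had 6.13, 6.10 and 5.95 in albino shoots, against 6.79, 6.35 and 6.49 in wild type. UGT76C2 had 7.54, 7.75 and 7.54 in albino shoots, against 7.32, 7.42 and 7.49 in wild type. Groups did not overlap in either gene, lower in the first and higher in the second. The difference of UGT76C1 was -0.48 ± 0.13 (limma adjusted p = 0.0533), and it passed when probe sets with a mean under the 25th percentile (0.0496) or the 50th percentile (0.0419) were left out. The difference of UGT76C2 was 0.20 ± 0.10 (adjusted p = 0.278).

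The UGT76E genes include UGT76E1, whose enzyme acts on a hydroxylated jasmonate. Its difference was 0.12 (95% interval -0.18 to 0.41), and UGT76E2, UGT76E11 and UGT76E12 had differences of -0.14, -0.03 and 0.02. The arrays overlapped in all 4. For auxin, UGT84B1 had 0.02 (-0.25 to 0.30) and UGT74D1 had -0.19 (-0.65 to 0.26), where albino shoots were widely spread (7.63, 7.31 and 6.82). UGT84B2 had -0.16. UGT74B1, an enzyme of glucosinolate synthesis, had 8.62, 8.48 and 8.53 in albino shoots, against 8.61, 8.33 and 8.39 in wild type, a difference of 0.10 (-0.15 to 0.35).

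Other genes that did not pass act in phenylpropanoid and flavonoid conjugation. UGT72E1, UGT72E2 and UGT72E3 code for enzymes that glucosylate monolignols and their aldehydes. UGT72E1 had 7.55, 7.67 and 7.05 in albino shoots, against 7.25, 6.84 and 6.38 in wild type, and the groups overlapped (0.60 ± 0.24, limma adjusted p = 0.164). UGT72E2 and UGT72E3 had differences of 0.08 and 0.07, and UGT72B3 had -0.20. UGT84A3, an enzyme of hydroxycinnamate ester formation, had 8.89, 8.85 and 8.68 in albino shoots, against 8.50, 8.43 and 8.54 in wild type. All albino arrays lay above all wild-type arrays, with a difference of 0.32 ± 0.10 (limma adjusted p = 0.0777). It passed under each of the 4 rescalings (0.40 to 0.44, adjusted p from 0.0220 to 0.0397) and with array weights (0.36, 0.0373). Its neighbours UGT84A1 and UGT84A4, of the same function, had -0.13 and 0.10.

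UGT78D2, a flavonoid 3-O-glucosyltransferase, had 6.91, 6.98 and 6.79 in albino shoots, against 7.58, 7.24 and 7.10 in wild type. The albino arrays all lay lower, but the wild-type arrays were spread, and the difference of -0.41 ± 0.14 did not pass (limma adjusted p = 0.101). UGT78D1, a flavonol 3-O-rhamnosyltransferase, had -0.09 (95% interval -0.34 to 0.16), and UGT78D3, an arabinosyltransferase, had -0.02 (-0.25 to 0.20). UGT80B1, a sterol glucosyltransferase of another type, had 6.282, 6.036 and 6.004 in albino shoots, against 6.33, 6.32 and 6.51 in wild type, a difference of -0.28 ± 0.11 (limma adjusted p = 0.160).

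**Figure D3:**
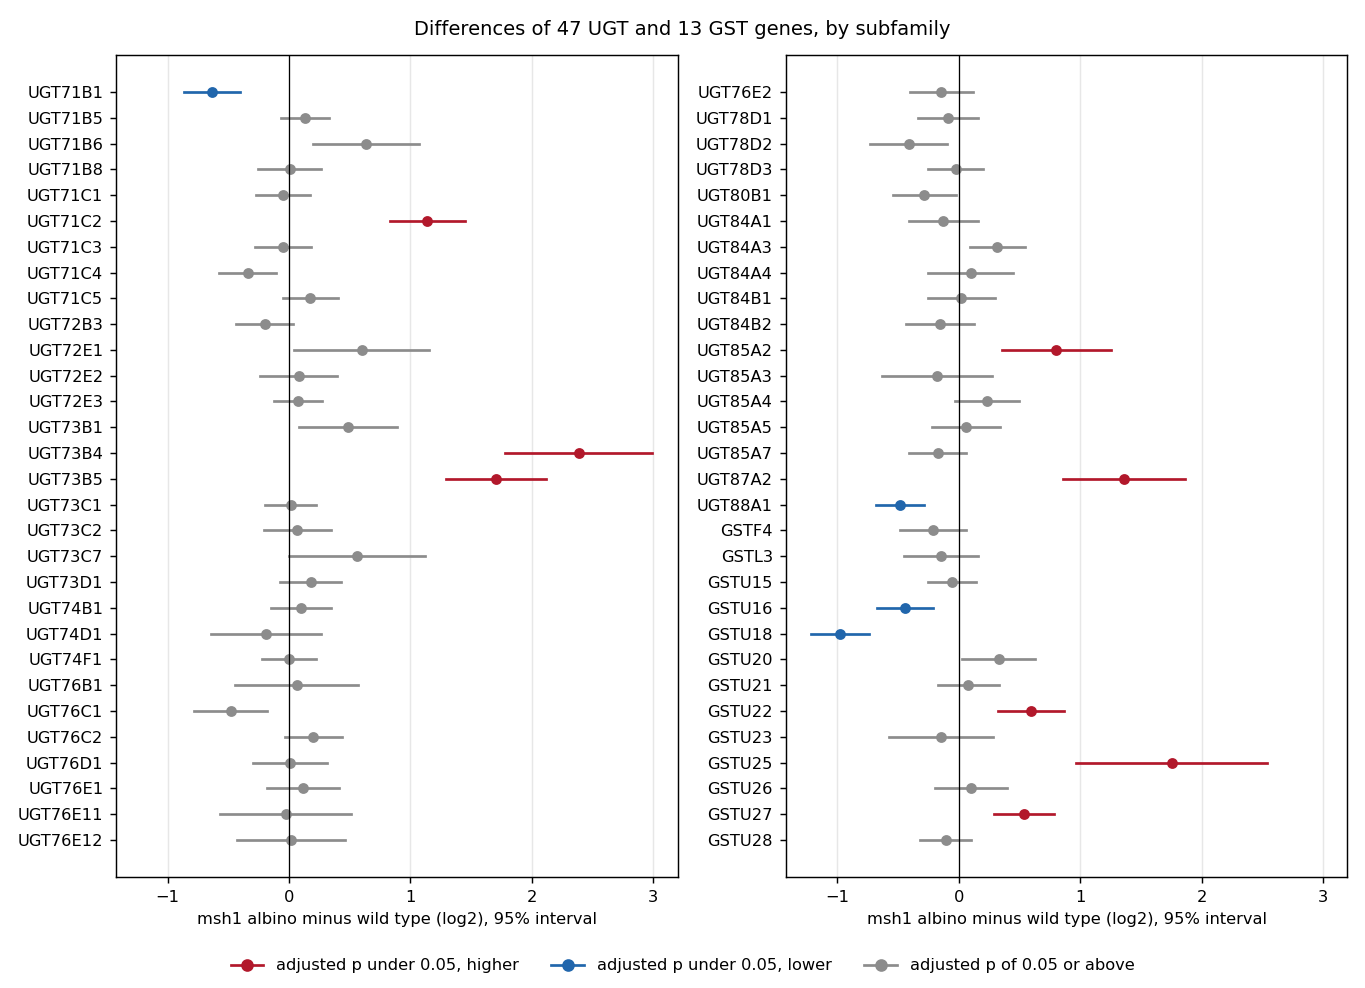
Difference (msh1 albino minus wild type, log2) of each of the 47 UGT and 13 GST genes with its 95% interval from limma, ordered by subfamily; red and blue mark genes past an adjusted p of 0.05, higher and lower, and grey the rest. The 40 UGT and 8 GST genes that did not pass had differences from -0.48 to 0.63.

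Of the 40 UGT genes that did not pass, 37 had a 95% interval within a 2-fold change either way, as did all 8 such GST genes. The others were UGT71B6, UGT72E1 and UGT73C7, whose intervals reached 1.07, 1.16 and 1.12. The 11 genes with a mean under the 25th percentile of all probe sets were all among those with an interval within a 2-fold change. They were UGT71C1, UGT72E3, UGT73C2, UGT76D1, UGT76E1, UGT78D3, UGT84B2, GSTU15, GSTU21, GSTU26 and GSTU28. If that level is background, their intervals bound the array value and not the change of the transcript.

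GSTU25 (AT1G17180), whose enzyme conjugates TNT to glutathione, changed most among the GST genes. It had 6.21, 6.50 and 5.02 in albino shoots, against 4.30, 4.08 and 4.09 in wild type. The wild-type arrays lay together, whereas albino replicate 3 stood more than 1 unit below the other albino arrays, though still above wild type. The difference was 1.75 ± 0.34, or 3.37-fold (limma adjusted p = 0.0180). The call was lost without msh1 albino replicate 1 (adjusted p = 0.0544), wild-type replicate 2 (0.0753) or wild-type replicate 3 (0.0635), and its adjusted p ran from 0.00187 to 0.0753 over the alternatives.

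GSTU22 (AT1G78340) had 4.72, 4.82 and 4.49 in albino shoots, against 3.975, 4.201 and 4.074 in wild type. GSTU27 (AT3G43800) had 7.90, 8.09 and 7.86 in albino shoots, against 7.54, 7.38 and 7.33 in wild type. In both genes every albino array exceeded every wild-type array. GSTU22 rose by 0.59 ± 0.12, or 1.51-fold (limma adjusted p = 0.0195), and GSTU27 by 0.54 ± 0.11, or 1.45-fold (adjusted p = 0.0197). The call of GSTU22 was lost without msh1 albino replicate 1 (0.0598), wild-type replicate 1 (0.0573), wild-type replicate 2 (0.0541) or wild-type replicate 3 (0.0654), within a range of 0.00558 to 0.0654. That of GSTU27 was lost without wild-type replicate 2 (0.0804) or wild-type replicate 3 (0.0705), within a range of 0.00607 to 0.0804.

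GSTU18 (AT1G10360) had 7.63, 7.38 and 7.50 in albino shoots, against 8.53, 8.52 and 8.39 in wild type. The gap between the groups was several times the spread within either. It fell by 0.98 ± 0.10, 1.97-fold lower (limma adjusted p = 0.00236), and held its call in every alternative tried. GSTU16 (AT1G59700) had 8.61, 8.76 and 8.56 in albino shoots, against 9.20, 9.01 and 9.05 in wild type. Its groups did not overlap, and it fell by 0.44 ± 0.10, 1.36-fold lower (limma adjusted p = 0.0300). That call was lost with arrays aligned on the 75th percentile (-0.36, adjusted p = 0.0602) or on reference genes (-0.33, 0.0784) and after cyclic loess (-0.33, 0.0506). It was also lost without msh1 albino replicate 1 (0.0876), msh1 albino replicate 3 (0.0823), wild-type replicate 1 (0.0811), wild-type replicate 2 (0.0763) or wild-type replicate 3 (0.0777). Its adjusted p ran from 0.0165 to 0.0880 over the alternatives.

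The other GST genes did not pass. GSTU20, whose protein is known to interact with the jasmonate-conjugating enzyme FIN219, had 10.35, 10.15 and 10.13 in albino shoots, against 10.07, 9.66 and 9.92 in wild type. Every albino array lay above every wild-type array, with a difference of 0.33 ± 0.13 (limma adjusted p = 0.159). GSTU15, GSTU21, GSTU23, GSTU26 and GSTU28 had differences from -0.15 to 0.10. GSTF4, the one phi class gene, had 4.41, 4.30 and 4.56 in albino shoots, against 4.45, 4.74 and 4.71 in wild type (-0.21, 95% interval -0.48 to 0.06). GSTL3, of the lambda class, whose members act as thiol transferases, had 9.95, 10.18 and 9.69 in albino shoots, against 10.12, 10.10 and 10.04 in wild type (-0.15, -0.45 to 0.16).

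Counts of genes that passed depended on single arrays more in the GST than in the UGT family. GST calls numbered 2 without msh1 albino replicate 1, 3 without wild-type replicate 1, and 1 without either wild-type replicate 2 or 3, where GSTU18 alone passed, against 5 with all arrays. UGT calls ran from 5 to 8 with 1 array left out, against 7. Over all probe sets 851 passed when wild-type replicate 2 was left out and 1255 when wild-type replicate 3 was, against 2547 with all arrays. The split between directions moved with scaling. Higher and lower UGT genes numbered 7 and 2 with alignment on the 75th percentile, 7 and 1 on reference genes, and 6 and 1 after cyclic loess or quantile normalization. For the GST genes they numbered 3 and 1 in the first 3 of these and 3 and 2 after quantile normalization. Over all probe sets the split was 854 higher and 1693 lower as deposited, and 1301 and 1095, 1481 and 953, 1260 and 1047, and 1186 and 1297 in these 4 rescalings in the same order.

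The 8 genes that rose shared an order among the albino arrays. In all 8, msh1 albino replicate 2 was the highest and replicate 3 the lowest of the albino arrays. Among all probe sets called higher, 35.2% had that order. The gap of replicate 3 below the mean of the other albino arrays ran from -0.14 in GSTU27 to -1.33 in GSTU25, with a median of -0.41, beside -0.15 over all probe sets called higher. msh1 albino replicate 3 also had the lowest 75th percentile of the albino arrays (7.75, against 7.81 and 7.91 in replicates 1 and 2). With arrays aligned on that percentile, an alternative added after the order had been seen, 5 of the 8 genes kept it, against 22.7% of the probe sets called higher. The part of array scale in the order was otherwise not tested. The genes that fell did not share the order: 1 of the 4 showed it.

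**Figure D4:**
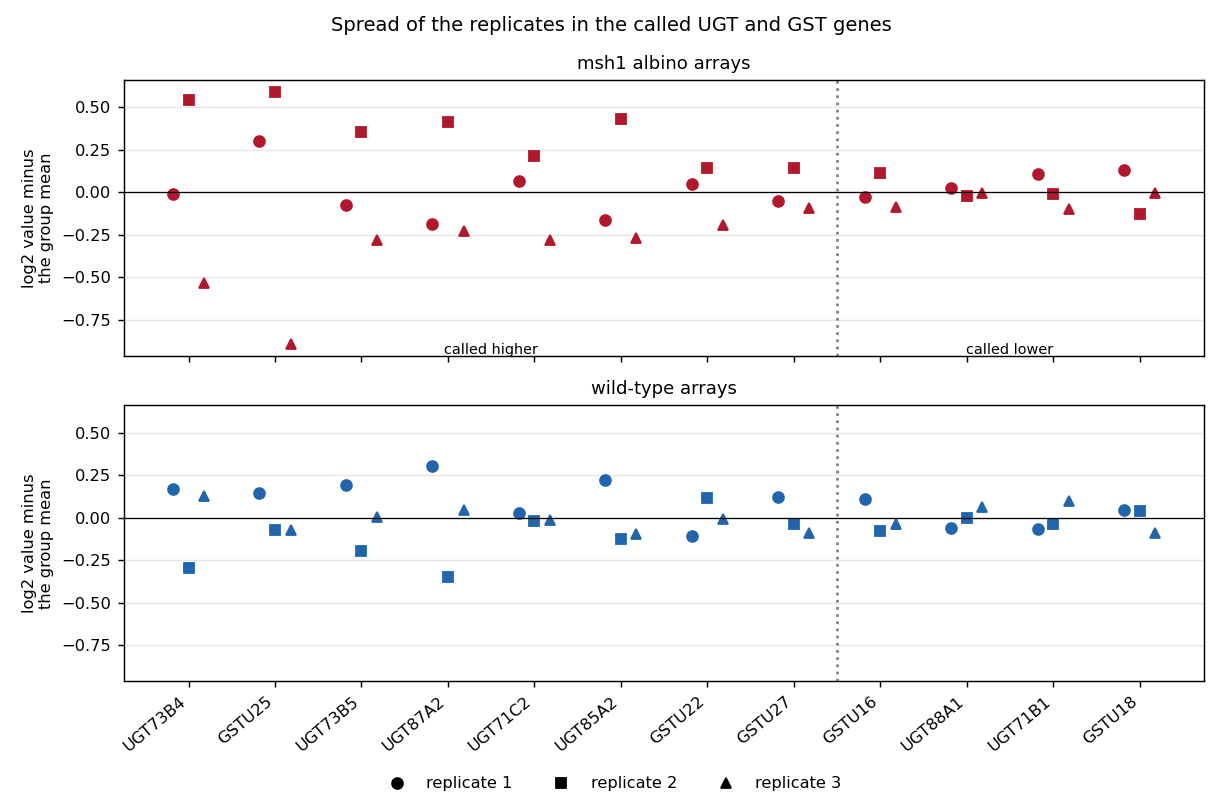
Log2 value of each array minus the mean of its own group (vertical axis) for the 12 genes that passed, msh1 albino arrays above (red) and wild-type arrays below (blue), with a symbol for each replicate. Left of the dotted line, in the 8 genes that rose, albino replicate 2 is highest and replicate 3 lowest in every gene.

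UGT and GST genes often stand in tandem rows in the Arabidopsis genome, and 18 pairs of measured genes are direct neighbours in the gene table. In 1 pair both genes passed, in 6 pairs 1 gene passed, and in 11 neither did. UGT73B4 and UGT73B5 formed the pair in which both rose. To compare neighbours, the log2 value of the second gene was subtracted from that of the first in each array. This gap has no meaning for their relative abundance, but its shift between groups shows unequal change of the array values. GSTU26, UGT71C1 and GSTU21 had means under the 25th percentile of all probe sets. If that level is background, a shift against them only restates the difference of the other gene. GSTU25 minus GSTU26 was 2.48 ± 0.59 in albino shoots and 0.82 ± 0.21 in wild type (SD, n = 3 each), a shift of 1.65. UGT71C2 minus UGT71C1 was 2.17 ± 0.34 in albino shoots and 0.98 ± 0.10 in wild type, a shift of 1.19.

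UGT85A2 shifted by 0.98 relative to UGT85A7 and by 0.74 relative to UGT85A5, its neighbours on either side. GSTU22 shifted by 0.74 relative to GSTU23 and by 0.51 relative to GSTU21, its own neighbours. UGT73B4 shifted by 0.68 relative to UGT73B5, although both rose. UGT76C2 shifted by 0.68 relative to UGT76C1. In these 8 shifts the gaps of the groups did not overlap, and each gave the smallest p that this test allows with 3 against 3 arrays (two-sided exact permutation p = 0.1, adjusted p = 0.15 over the 18 pairs), so the test cannot pass 0.05 here. Gaps did not overlap in 12 of the 18 pairs (66.7%), some of which share a gene, against 32.9% of all 5878 pairs of neighbouring genes with a probe set each. The 12 include every pair in which a gene passed, so this share is not independent of the calls. They also include UGT76E1 with UGT76E2, and UGT76E1 too had a mean under the 25th percentile.

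**Figure D5:**
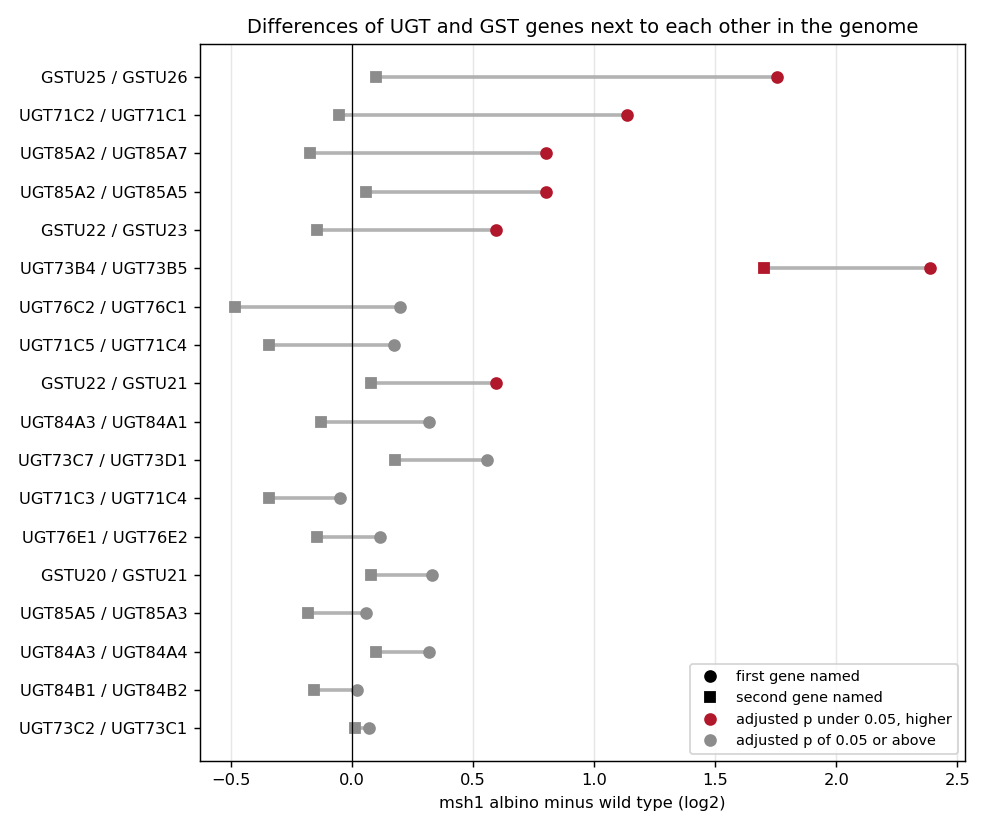
Differences (msh1 albino minus wild type, log2) of both genes in the 18 pairs of neighbouring UGT or GST genes, ordered by how far their differences lie apart; circles mark the first gene named and squares the second, red an adjusted p under 0.05 and higher, grey the rest. GSTU25 and GSTU26 differ most, with 1.75 and 0.10, while UGT73B4 and UGT73B5 both lie far above 0.

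Family members annotated under other names stood outside the rule. They were sought by a UGT or GST synonym and by the symbols ATGSTF13 and IAGLU, so members named in other ways were not looked at. None of the 6 found with a single gene passed. These 6 had differences from -0.12 to 0.27. The highest was UGT72B1 (listed as GT72B1), an enzyme that conjugates chlorinated phenols, with 8.83, 8.94 and 8.75 in albino shoots, against 8.68, 8.47 and 8.56 in wild type, groups that did not overlap (0.27 ± 0.10, limma adjusted p = 0.141). The others were UGT80A2 (as SGT), UGT79B6, UGT79B1 (as UF3GT), the indole-3-acetate glucosyltransferase IAGLU and GSTF13. Of 3 probe sets annotated to several genes, 1 passed, the UGT73B probe set described above.

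Few genes of the pathways that supply or use these enzymes were measured. For glutathione synthesis, reduction and use 2 genes were measured, both glutathione reductases, and neither passed: GR had a difference of -0.06 (95% interval -0.30 to 0.19) and GR1 one of 0.09 (-0.24 to 0.41). For transporters of conjugates and xenobiotics 1 was measured, AT5G52050, a DTX type efflux carrier, with 0.41 ± 0.20 (limma adjusted p = 0.255). The flavonoid pathway was represented by DFR, dihydroflavonol reductase (-0.04), and the glucosinolate pathway by BCAT4, an aminotransferase of methionine chain elongation (-0.51 ± 0.16, adjusted p = 0.0797). BSMT1, which methylates salicylic and benzoic acid, had 3.80, 3.46 and 3.82 in albino shoots, against 5.62, 4.19 and 4.70 in wild type. Its groups did not overlap, and its difference of -1.14 ± 0.32 did not pass (limma adjusted p = 0.0630). The albino mean of BSMT1, 3.69, lay under the 25th percentile of all probe sets, 4.01. If that level is background, this difference would understate the change. No gene of the lists for oxylipins and for as-1 binding factors was paired with a probe set of its own, and the 8730 probe sets without a gene name may include some of them, as they may for the other lists.

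Arrays of the same group correlated at 0.989 to 0.995 and those of different groups at 0.969 to 0.985 over probe sets. Of 8 leaf markers 3 were measured, LHCB4.1, LHCB4.2 and RCA, and all 3 fell. Their summed level, as log2, ran from 13.82 to 14.11 in albino shoots and from 14.64 to 14.69 in wild type. Since all mutant plants were albino, these markers cannot tell leaf composition apart from the albino state. No marker of root, flower or seed in the lists was measured. The 3' minus 5' values of control transcripts are a sign of RNA integrity. They ran from 0.27 to 0.53 in albino shoots and from 0.28 to 0.75 in wild type for GAPDH, from 3.27 to 3.61 in albino shoots and from 3.41 to 4.08 in wild type for actin, and from 1.39 to 1.59 in albino shoots and from 1.30 to 1.46 in wild type for ubiquitin. The groups overlapped in all 3 controls. The part of leaf composition or RNA integrity in the differences of UGT and GST genes was not tested.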

How the data were processed

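Data of 6 arrays from the aerial parts of albino msh1 and wild-type plants were used as deposited. The authors deposited log2 values, 1 per probe set and array, made with RMA in the affy package per the submitters' processing notes; no version or setting is given in those notes. After leaving out 64 array controls, all 22746 probe sets were fitted with lmFit and eBayes in limma 3.58.1 (R 4.3.3), each difference taken as the albino mean minus the wild-type mean with a two-sided test, and p-values were adjusted by Benjamini-Hochberg, with 0.05 as threshold. The spread between 3 arrays per group limits the precision. The array annotation gave 13513 probe sets a single gene, 503 several and 8730 none, and all 60 members matched the TAIR10.1 gene table, used for names and neighbours only. Members, gene lists and the naming rule (members that pass, the one with the highest mean in each subfamily, those with a difference of at least 1, a list of members with textbook roles, and per related list up to 4 passing genes or else the 2 with the largest difference) were chosen with earlier results of these data known. Members outside the naming rule are given for completeness. The name CHI was dropped from the flavonoid list because it belongs to a chitinase here. Neighbouring genes were compared with exact permutation tests. Replicate numbers gave no sign of pairing the arrays, and the main fit did not use them. The fitting code was tested on simulated data. Alternatives were 4 rescalings, filters on low means, other variance settings, a replicate block and leaving out each array.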

Additional observations from a re-analysis of the deposited data

How the results depend on the processing

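Of the 12 UGT and GST genes that passed, none changed direction in any alternative, and 6 (UGT73B4, UGT73B5, UGT87A2, UGT71C2, UGT71B1 and GSTU18) passed in every alternative at the 0.05 threshold. The count of UGT genes stayed within 1.5 times 7 in every alternative, with 5 to 8 when 1 array was left out. The count of GST genes was 5 with all arrays, 3 above the 50th percentile of the mean (where 5 GST genes were tested), 1 at an adjusted p of 0.01, and 1 to 5 with 1 array left out. With the replicate number as a block, 3 GST genes, 5 UGT genes and 1485 probe sets passed, against 2547 without it, and the calls of UGT85A2 (adjusted p = 0.0687), UGT88A1 (0.0573), GSTU16 (0.0880) and GSTU27 (0.0571) were lost. Deviations from the group means correlated at 0.01, -0.34 and -0.02 for same-numbered arrays. Of the 6 arrays, 0 correlated best with their own number in the other group. These values gave no sign that the numbers pair the arrays, but so few arrays cannot exclude it. Over all probe sets 689 passed at an adjusted p of 0.01 and 851 to 2109 with 1 array left out. Calls lost with fewer arrays come with less power, and the cause of the other changes was not tested. Over the alternatives the median difference ran from 0.01 to 0.14 for UGT genes and from -0.15 to 0.06 for GST genes, where its sign changed. Among genes that did not pass, 10 values over all alternatives crossed the threshold, for UGT71B6, UGT73C7, UGT76C1 and UGT84A3. Background signal was not measured, which limits how the folds of UGT73B4, GSTU25 and GSTU22, low in wild type, can be read.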
